A study of Homo sapiens with 8 samples.

Results

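Type I interferon-stimulated antiviral genes are the effector program that a cell switches on after interferon alpha or beta binds its receptor. The set described here held 40 gene symbols of that program, given as a list of names. Of these, 39 were present among the 59023 symbols of the count table and all 39 were among the 15062 genes that passed the filter on low counts. The other symbol was not analysed here. They were followed in A498, an established cell line of clear cell renal cell carcinoma (ccRCC) in which VHL is mutated. RNA-seq was done on 4 untreated cultures (replicates 1 to 4) and on 4 cultures kept with interleukin-1β (IL1β) at 30 ng/ml for 4 h (replicates 5 to 8). The question was which of these genes differed between treated and untreated tumor cells. The study's methods describe the cultures as 4 experimental pairs, but the labels do not say which untreated and treated cultures belong together, so the groups were compared without pairing. How the cultures within a group were separated is not given either, and p-values measure the spread between these 8 samples.

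As background, interferon alpha and beta are secreted when a cell senses viral nucleic acid, and act through the receptor chains IFNAR1 and IFNAR2 and the kinases JAK1 and TYK2. These phosphorylate STAT2, which acts on DNA in a complex with IRF9 at a short sequence, the interferon-stimulated response element (ISRE), in front of the antiviral genes. IL1β itself signals through a separate receptor to NF-kB, whose subunits can also induce IFNB1 (interferon beta), IRF1 and some of the antiviral genes.

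Levels are counts per 1000000 counts (CPM), scaled with the trimmed mean of M-values (TMM). The libraries held 16610473 to 27040505 counts in untreated and 15409093 to 24000727 counts in IL1β cultures, and 3 counts stood for 0.110 to 0.220 TMM-scaled CPM. Untreated replicate 1 and IL1β replicate 5 stood off from the rest when all genes tested were summarised by principal components (first-component scores of -59.5 and -102 against 18.8 to 37.2). Renal markers were present in all 8 libraries, with VIM at 3313 to 4829 CPM, KRT8 at 638 to 1306 CPM and PAX8, a renal lineage factor, at 107 to 519 CPM, while CA9 was at 0.403 to 5.80 CPM. CDH6, another renal marker, was at 4.44 CPM in untreated replicate 1 and 1.40 CPM in IL1β replicate 5 against 35.0 to 80.5 CPM in the other 6 libraries. PAX8 rose with IL1β (log2 fold change 1.5, edgeR adjusted p = 0.0239). The 8 leukocyte markers summed to 20.9 CPM in untreated replicate 1 and 7.06 CPM in IL1β replicate 8, mostly LYZ (19.5 and 6.52 CPM), and to 0.579 to 3.98 CPM in the other libraries, with no count of CD3E in any. The 6 fibroblast and pericyte markers summed to 916 CPM in untreated replicate 4, mostly COL1A1 (680 CPM), and to 55.9 to 135 CPM in untreated replicates 1 to 3. With IL1β they summed to 352 CPM in replicate 6 and to 83.3 to 130 CPM in replicates 5, 7 and 8. The part of all these markers in the results was not tested.

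The ISRE was looked for in the promoters, since it is the element through which these genes are known to answer interferon. Promoter sequence of 250 bases before to 50 bases after a start site was at hand for 32 of the 39 genes (RefSeq, GRCh38.p14). The core GAAANNGAAA was searched on both strands without any mismatch, overlapping matches counted separately. It occurred in at least 1 window of 22 of the 32 genes (68.8%) and of 1195 of the 27305 genes with a window (4.38%). An NF-kB consensus, searched by its name as the 10-base kB site, occurred in 4 of the 32 genes (12.5%) and in 7.09% of all genes, and the pair of them in the same window in 3 of the 32 (9.38%), namely IFIH1, OAS3 and BST2, and in 0.205% of all genes. A match is a description of the letters and shows no binding.

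The stretches below were chosen to show the range of arrangements among genes whose values follow: overlapping cores, a single core, cores on the opposite strand, and a core beside a kB site. All are read 5′ to 3′ along the gene's own strand, with the matches inside each stretch in capitals. Matches that lie outside the stretches are named below them. ISG15 and PARP14 rose, ISG20 was a gene with its top value in IL1β replicate 5, and the others are described in turn with their families. The ISG15 stretch lies in an intron of a longer annotated ISG15 transcript, that of PARP14 lies outside genes, and those of IFIT1 and IFIT3 lie in introns of LIPA, a gene that runs on the opposite strand. For genes whose upstream sequence overlaps an annotated exon, at most 30 bases are shown.
ISG15 (chr1:1013372-1013411, plus strand): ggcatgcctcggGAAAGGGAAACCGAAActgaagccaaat
PARP14 (chr3:122680798-122680831, plus strand): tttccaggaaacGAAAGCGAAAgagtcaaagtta
ISG20 (chr15:88638937-88638966, plus strand): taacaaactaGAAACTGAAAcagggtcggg
IFIT1 (chr10:89392495-89392541, plus strand): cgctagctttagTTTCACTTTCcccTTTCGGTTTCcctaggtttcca
IFIT3 (chr10:89327829-89327896, plus strand): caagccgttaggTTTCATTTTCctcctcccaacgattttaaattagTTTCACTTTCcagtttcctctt
IFI44L (chr1:78620274-78620303, plus strand): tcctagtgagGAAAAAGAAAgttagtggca
IFIH1 (chr2:162318821-162318850, minus strand): aattcgcTTTCCTTTTCTGTTTCccgcggt
OAS3 (chr12:112938328-112938357, plus strand): aacGAAACTGAAAgcaGGGAATTTCCCaag
BST2 (chr19:17405738-17405767, minus strand): tttctggGAAACTGAAACTGAAAacctaat
In ISG15 and BST2, 2 cores overlapped so that they share a GAAA, and in IFIH1 the same arrangement was read on the opposite strand. In OAS3 the core shown was followed within a few bases by a kB site matched on each strand in overlapping positions. Outside the stretches, a further core began 73 bases before the start site in IFI44L, 21 in IFIH1 and 12 in OAS3. A kB site began 76 bases before it in IFIH1 and 226 in BST2. IFIT3 also had cores in another window. The 10 genes with a window and no core were CMPK2, HERC6, IFI16, IFI35, SAMD9L, SP110, STAT2, TRIM25, UBE2L6 and XAF1, of which XAF1 had a kB match. PARP9 and DTX3L, which lie head to head, shared a single core. Read along each gene, its first base lay 41 bases before the PARP9 start site and 6 bases before that of DTX3L, which the core ran across. MX1 had a core in each of 2 windows, at base 12 after one start site and 196 bases before the other.

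Of the 39 genes, 6 rose with IL1β and none fell (edgeR quasi-likelihood test, Benjamini-Hochberg adjusted p under 0.05 over all genes). The 6 were DHX58, MX1, ISG15, PARP14, CMPK2 and SAMD9L. Among all 15062 genes tested, 140 rose (0.929%) and 9 fell (0.0598%). All 39 fold changes were above 0, with a median log2 fold change of 1.65 against -0.02 over all genes tested. At an unadjusted p under 0.05, 36 of the 39 were higher, against 6.23% of all genes, and 0 were lower. The study's thresholds (unadjusted p under 0.01, log2 fold change over 1) were met by 24 of the 39 genes, against 2.12% of all genes. They were applied here to the unpaired edgeR test, whereas the study used limma, so these counts are not the study's own. RNA of whole cultures was measured, so that a change in the number of responding cells and a change in RNA per cell cannot be told apart.

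**Figure D1:**
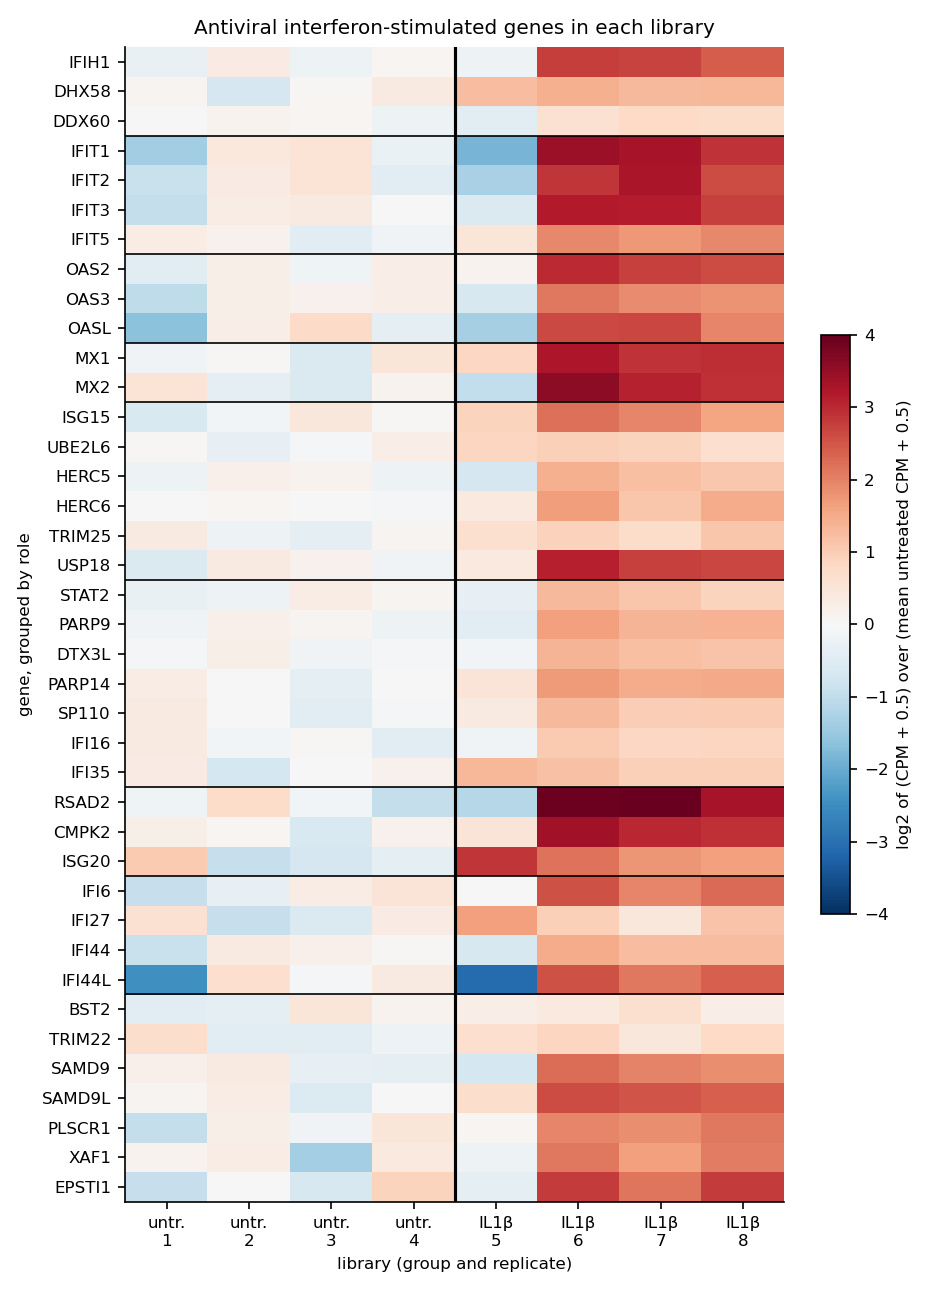
Level of each of the 39 antiviral genes (y axis, grouped by role with lines between groups) in each of the 8 libraries (x axis), as log2 of CPM over the mean CPM of the 4 untreated libraries, 0.5 CPM added to each; colours saturate at 4 above and below 0. IL1β replicates 6, 7 and 8 are red for nearly all genes, whereas replicate 5 is pale or blue for most, and is as red as the others for a minority such as DHX58, IFI35 and ISG20.

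The 4 treated cultures did not share one response. In 36 of the 39 genes, IL1β replicates 6, 7 and 8 all lay above the highest untreated culture, which held for 7.81% of all genes tested. In those 36 genes, replicate 5 lay above the untreated range for 13, within it for 13 and below it for 10. The 10 genes for which it lay below were DDX60, IFIT1, IFIT2, MX2, HERC5, STAT2, PARP9, RSAD2, IFI44L and SAMD9. Of the 1177 such genes among all tested, replicate 5 lay above the range for 693, within it for 345 and below it for 139. Whatever replicates 6 to 8 did, it lay above the range in 14 of the 39 genes (35.9%) and 29.2% of all genes. It lay below in 10 of the 39 and in 4629 of all 15062, so lying outside the range was common in this library. Replicate 5 was the lowest IL1β culture in 33 of the 39 genes, against 40.9% of all genes tested.

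The median ratio of the 39 genes to their untreated mean was 1.0 in replicate 5, 4.35 in replicate 6, 3.59 in replicate 7 and 3.46 in replicate 8. Their summed level was 1481 to 1573 CPM in the untreated cultures, 1825 CPM in replicate 5 and 5851, 5208 and 4943 CPM in replicates 6, 7 and 8. On the TMM scale the sum in every IL1β culture thus exceeded that in every untreated one, replicate 5 slightly and the other 3 by far. The TMM factor of replicate 5 (0.871) was the lowest of all libraries and raises its values. Its place just above the untreated cultures depends on this scaling. The median SD of log2 CPM over the genes was 0.45 among untreated, 0.97 among the 4 IL1β cultures and 0.19 among replicates 6, 7 and 8, where all genes tested had 0.39, 0.37 and 0.19.

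A list of 15 textbook NF-kB response genes was set beside them for comparison in replicate 5. It was written with earlier results of these data known and holds genes that the study reported as induced, so it is no independent check. The median ratios of these 15 genes to the untreated mean were 7.02, 6.18, 6.16 and 8.21 in replicates 5 to 8. Replicate 5 lay above the untreated range in 15 of 15, against 29.2% of all genes tested. ICAM1, an adhesion molecule, was at 207, 321, 137 and 667 CPM in untreated replicates 1 to 4 and 2339, 2059, 2052 and 2413 CPM in IL1β replicates 5 to 8. The leukocyte-attracting chemokine CXCL8 had 129, 310.5, 26.0 and 477 CPM untreated and 4637, 4653, 3574 and 4629 CPM with IL1β, with every treated culture far above every untreated one. In replicate 5 the median ratio of the NF-kB response genes thus lay within the range of the other treated cultures, while that of the antiviral genes did not. The position of replicate 5 on the first principal component and its TMM factor (0.871, against 0.967 to 1.09 in the other libraries) moved with this difference, and their part in it was not tested.

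**Figure D2:**
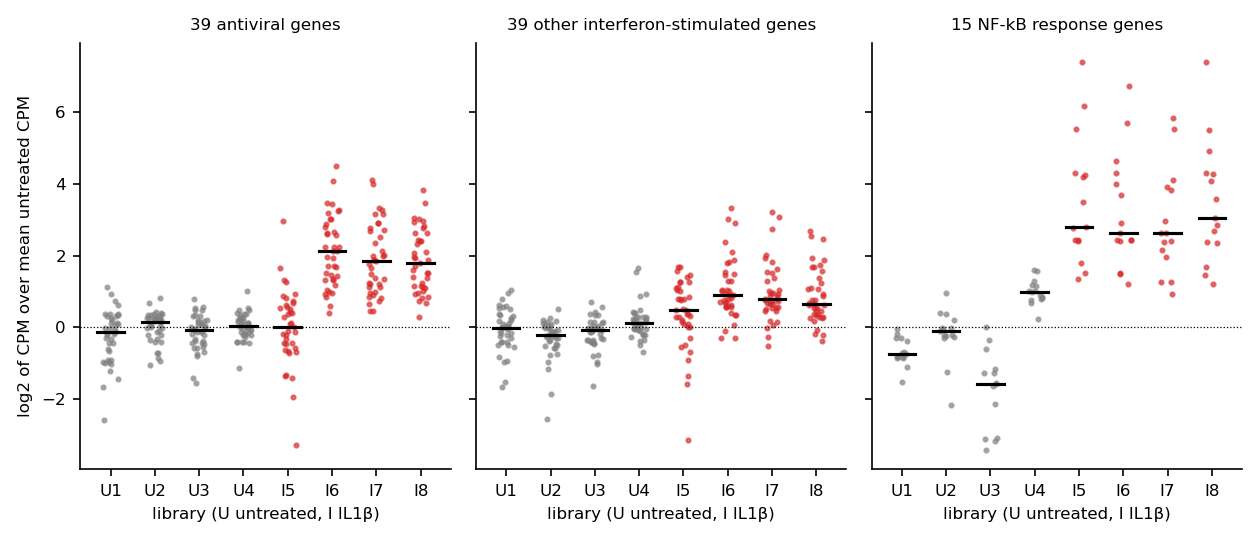
Log2 ratio of CPM to the mean CPM of the 4 untreated libraries (y axis) in each library (x axis; U untreated, I IL1β) for the 39 antiviral genes, 39 other interferon-stimulated genes and 15 NF-kB response genes; each point is a gene and each black line a median, and the few libraries with no count for a gene carry no point. In replicate 5 the median ratio of the antiviral genes is 1.0 and that of the NF-kB response genes 7.02.

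Leaving replicate 5 out, 28 of the 39 genes rose and none fell, against 1.41% of all genes tested that rose in the same fit (edgeR). The 11 that did not pass were DDX60, UBE2L6, TRIM25, IFI16, IFI35, ISG20, IFI27, IFI44, IFI44L, BST2 and TRIM22. With untreated replicate 1 left out as well, 37 rose, IFI27 and BST2 being the exceptions, against 2.5% of all genes. The 6 genes that rose over all 8 libraries also rose in both of these fits. Both libraries were left out with their values known, and replicate 5 was mostly the lowest of its group, so that the counts without them describe the remaining libraries and do not replace the count over all 8. Leaving out any other single library gave 0 to 2 genes. Without untreated replicate 1 they were ISG20 and TRIM22, and without untreated replicate 2 or 4 only DHX58 passed. Of all genes tested, 107 of 15163 rose without untreated replicate 1, 58 of 15429 without replicate 2 and 122 of 15424 without replicate 4. Without untreated replicate 3 or IL1β replicate 6, 7 or 8, none of the 39 passed with edgeR, and 34, 31, 31 and 32 of them were higher at an unadjusted p under 0.05, against 6.22%, 4.9%, 5.47% and 5.41% of all genes. DESeq2 called 26 of the 39 higher over all 8 libraries (2.82% of all genes) and limma-voom 6 (1.21%), and 6 and 4 of these were among the 6 of edgeR.

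Groups did not overlap in 13 of the 39 genes, every IL1β culture being above every untreated one, against 4.6% of all genes. They were DHX58, IFIT5, MX1, ISG15, UBE2L6, HERC6, TRIM25, USP18, PARP14, IFI35, CMPK2, ISG20 and SAMD9L. In 25 of the other 26 genes replicate 5 lay within or under the untreated range, and in IFI27, the exception, replicate 7 did.

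**Figure D3:**
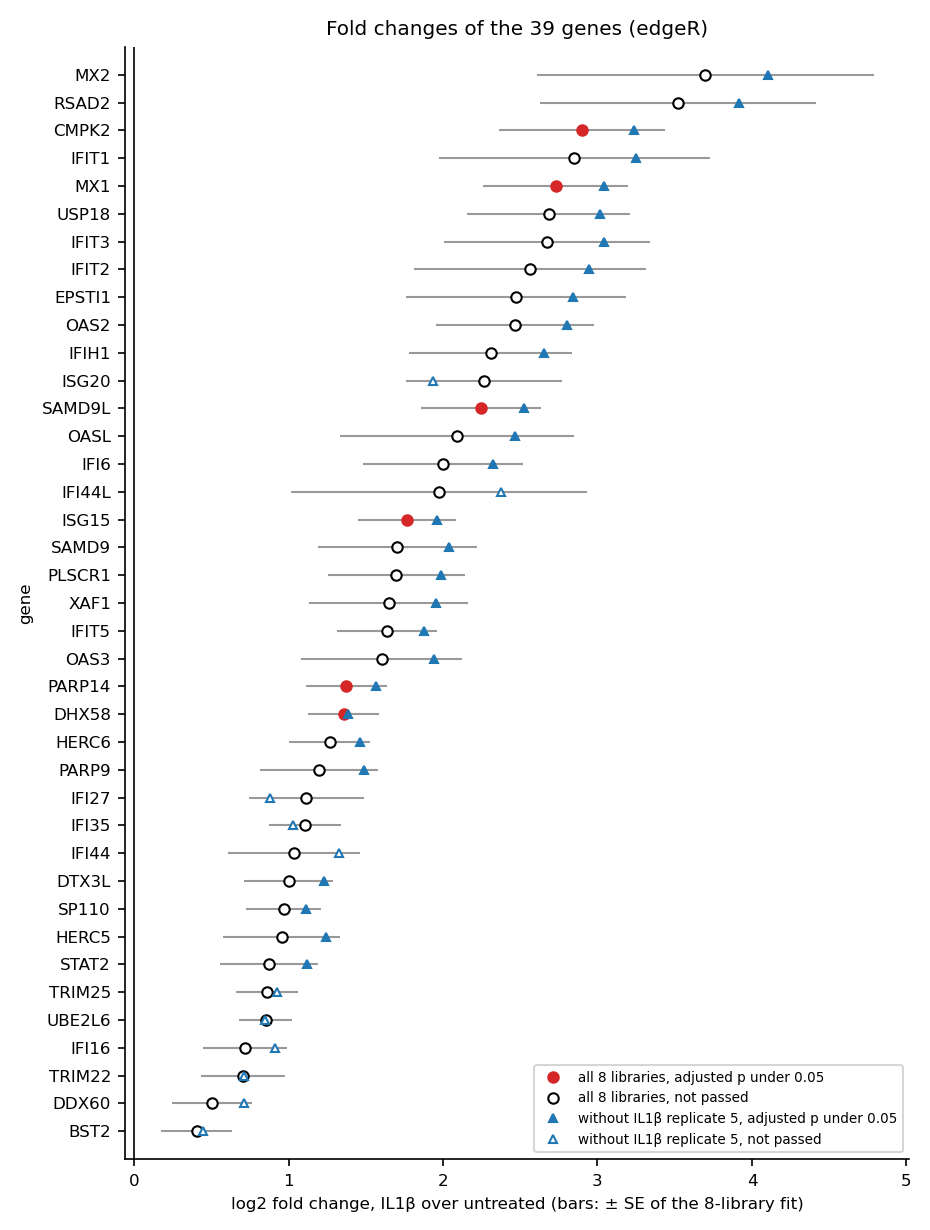
Log2 fold change of each of the 39 genes (x axis) with IL1β over untreated; circles show the fit of all 8 libraries with bars of ± 1 SE, filled where adjusted p was under 0.05 (6 genes), and triangles the fit without IL1β replicate 5, filled where adjusted p was under 0.05 (28 genes). Most genes shift to the right without replicate 5, while ISG20, IFI27, IFI35 and, barely, UBE2L6 (0.852 to 0.848) shift to the left.

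The RNA sensors recognise viral double-stranded RNA in the cytoplasm and pass the signal on to interferon induction. DHX58 (LGP2), which modulates the other sensors, rose, with 13.2, 7.54, 12.7 and 15.8 CPM in untreated replicates 1 to 4 and 29.5, 34.0, 31.1 and 31.8 CPM in IL1β replicates 5 to 8 (log2 fold change 1.36 ± 0.23 SE, edgeR adjusted p = 0.0284). All 4 treated cultures lay within a narrow band above all untreated ones. IFIH1 (MDA5), which binds long double-stranded RNA, had 17.4, 27.5, 18.7 and 23.1 CPM untreated and 18.9, 150.3, 143 and 117 CPM with IL1β (log2 fold change 2.31 ± 0.53 SE, edgeR adjusted p = 0.0887). Replicates 6 to 8 were several times the untreated level and replicate 5 lay within the untreated range. Without replicate 5 IFIH1 rose (log2 fold change 2.65, edgeR adjusted p = 0.0007, with 0.000349 to 0.252 over all alternatives run). DDX60, a helicase described as a cofactor of these sensors, had 36.9, 41.0, 39.1 and 32.1 CPM untreated and 27.3, 56.7, 65.0 and 62.2 CPM with IL1β (log2 fold change 0.50 ± 0.26 SE, edgeR adjusted p = 0.551), and its replicate 5 was the lowest of all 8 libraries. DDX58 (RIG-I), the third sensor of this family, is no member of the set and was looked at after its values were seen; it had 36.1, 69.5, 40.6 and 60.8 CPM untreated and 67.7, 369, 318 and 288 CPM with IL1β (log2 fold change 2.33 ± 0.47 SE, edgeR adjusted p = 0.057).

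IFIT proteins bind viral RNA that lacks the cap structure of the host and block its translation. The 4 genes lie side by side on chromosome 10 (chr10:89283694-89421605, GENCODE 44, GRCh38). None of the 4 passed edgeR's test over all 8 libraries, all 4 were at an unadjusted p under 0.05, DESeq2 called 3 of them and limma-voom 0. The shares of all genes higher by these last 3 measures were 6.23%, 2.82% and 1.21%. IFIT1 was at 9.79, 35.9, 39.0 and 22.1 CPM in untreated replicates 1 to 4 and 6.98, 291, 268 and 203 CPM in IL1β replicates 5 to 8 (log2 fold change 2.85 ± 0.87 SE, edgeR adjusted p = 0.228). IFIT2 gave 14.7, 35.2, 41.2 and 20.5 CPM untreated and 11.2, 206, 270.2 and 171 CPM with IL1β (log2 fold change 2.56 ± 0.75 SE, edgeR adjusted p = 0.2). IFIT3, which stabilises IFIT1 on RNA, gave 25.3, 61.2, 63.2 and 48.9 CPM untreated and 33.1, 452, 444 and 336 CPM with IL1β (log2 fold change 2.67 ± 0.67 SE, edgeR adjusted p = 0.122). In these 3 genes the lowest untreated culture was replicate 1, and IL1β replicate 5 was next to it or lower. IFIT5 differed from its neighbours, with 39.3, 35.5, 22.9 and 28.8 CPM untreated and 44.7, 120.4, 107 and 122 CPM with IL1β (log2 fold change 1.64 ± 0.32 SE, edgeR adjusted p = 0.0521), and its replicate 5 was the lowest treated culture but above all untreated ones. All 4 genes rose without replicate 5, with log2 fold changes of 3.25 for IFIT1, 2.95 for IFIT2, 3.04 for IFIT3 and 1.87 for IFIT5.

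The OAS enzymes make short 2′-5′ linked adenylate chains that activate RNase L, which degrades RNA in infected cells. OAS2 had 19.8, 31.6, 23.9 and 32.5 CPM in untreated replicates 1 to 4 and 29.5, 217, 182 and 167 CPM in IL1β replicates 5 to 8 (log2 fold change 2.47 ± 0.51 SE, edgeR adjusted p = 0.0637). OAS3, the family member with the highest affinity for long double-stranded RNA, had 39.4, 93.3, 90.5 and 95.2 CPM untreated and 50.4, 346, 295 and 276 CPM with IL1β (log2 fold change 1.60 ± 0.52 SE, edgeR adjusted p = 0.266). OASL, which has lost the enzyme activity and acts on RIG-I, had 12.1, 46.6, 66.9 and 29.3 CPM untreated and 15.1, 245, 249 and 150.2 CPM with IL1β (log2 fold change 2.09 ± 0.76 SE, edgeR adjusted p = 0.327). None of the 3 passed over all 8 libraries with edgeR (3 at an unadjusted p under 0.05, 2 with DESeq2, 0 with limma-voom, against 6.23%, 2.82% and 1.21% of all genes). The same layout was seen in each, with replicate 5 inside the untreated range and replicates 6 to 8 above it. OAS2 and OAS3 are neighbours on chromosome 12 (chr12:112938051-113011723).

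MX proteins are dynamin-like GTPases that bind viral nucleocapsids. MX1 rose the most in CPM among the 6 called genes, with 46.8, 53.1, 34.2 and 72.1 CPM in untreated replicates 1 to 4 and 91.5, 486, 384 and 404 CPM in IL1β replicates 5 to 8 (log2 fold change 2.73 ± 0.47 SE, edgeR adjusted p = 0.0306). Replicate 5 was above each untreated culture and was still far under replicates 6 to 8. MX2, which lies next to MX1 on chromosome 21 (chr21:41361999-41470071), was scarce, at 0.168 to 0.954 CPM untreated and 7.12 to 11.4 CPM in replicates 6 to 8. It had no count in replicate 5, where 3 counts would stand for 0.220 CPM (log2 fold change 3.70 ± 1.09 SE, edgeR adjusted p = 0.204).

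ISG15 is a ubiquitin-like modifier, UBE2L6 its conjugating enzyme, HERC5 and TRIM25 act as ligases, and USP18 removes it and also restrains the interferon receptor. ISG15 rose, with 13.4, 19.0, 28.4 and 21.5 CPM in untreated replicates 1 to 4 and 38.9, 97.3, 81.1 and 62.3 CPM in IL1β replicates 5 to 8 (log2 fold change 1.77 ± 0.32 SE, edgeR adjusted p = 0.0361). Replicate 5 was intermediate between the untreated cultures and replicates 6 to 8. UBE2L6 had 51.4, 38.9, 48.2 and 59.0 CPM untreated and 89.5, 96.8, 91.3 and 78.7 CPM with IL1β (log2 fold change 0.85 ± 0.17 SE, edgeR adjusted p = 0.057), and TRIM25 had 276, 187, 167 and 233 CPM untreated and 334, 409, 358 and 466 CPM with IL1β (log2 fold change 0.86 ± 0.20 SE, edgeR adjusted p = 0.0976). The groups did not overlap in either gene, and replicate 5 lay among the other treated cultures for UBE2L6 and under them for TRIM25. HERC5 gave 22.6, 30.4, 29.2 and 22.9 CPM untreated and 16.2, 70.8, 60.7 and 55.7 CPM with IL1β (log2 fold change 0.96 ± 0.38 SE, edgeR adjusted p = 0.388), with replicate 5 the lowest of the 8. HERC6, its neighbour on chromosome 4 (chr4:88378739-88506163), gave 21.5, 23.1, 21.7 and 20.8 CPM untreated and 28.7, 71.2, 47.6 and 62.1 CPM with IL1β (log2 fold change 1.27 ± 0.26 SE, edgeR adjusted p = 0.0619), with replicate 5 just above the untreated cultures. USP18 was at 2.38, 4.99, 4.29 and 3.39 CPM in untreated replicates 1 to 4 and 5.07, 36.6, 28.1 and 26.5 CPM in IL1β replicates 5 to 8 (log2 fold change 2.68 ± 0.53 SE, edgeR adjusted p = 0.0523). Its groups did not overlap, although replicate 5 exceeded the highest untreated culture only slightly. USP18 has a near-identical copy, USP41, so that reads could be split between them in the counting.

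**Figure D4:**
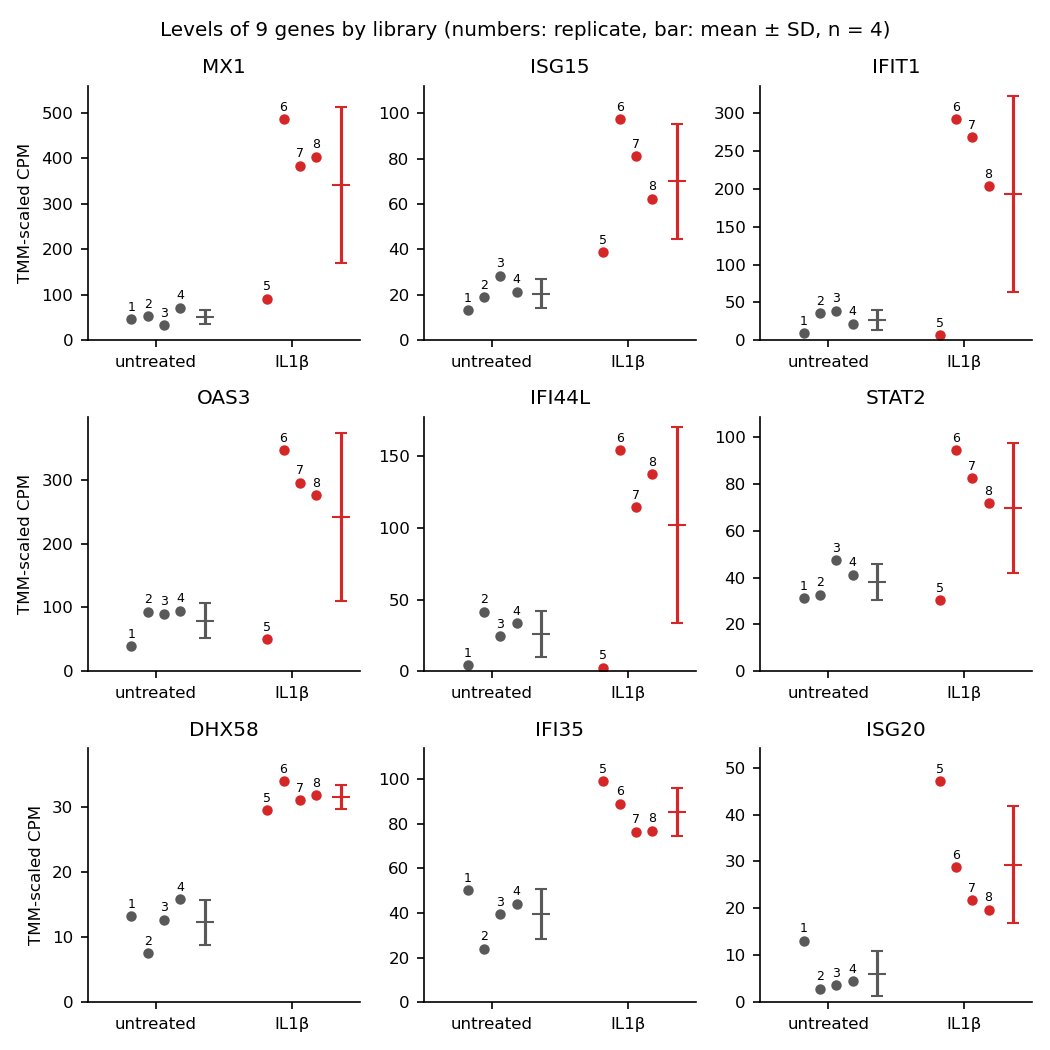
TMM-scaled CPM (y axis, from 0) of 9 genes in each library, grey for untreated and red for IL1β, with the replicate number over each point and the mean ± SD of the 4 libraries at the right of each group. In IFIT1, OAS3, IFI44L and STAT2 replicate 5 sits with or under the untreated cultures, in MX1 and ISG15 just above them, and in DHX58, IFI35 and ISG20 level with or above the other treated cultures.

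The next 7 genes act in signalling and transcription. STAT2, the interferon-specific STAT, had 31.1, 32.6, 47.3 and 41.2 CPM in untreated replicates 1 to 4 and 30.5, 94.2, 82.2 and 71.7 CPM in IL1β replicates 5 to 8 (log2 fold change 0.87 ± 0.32 SE, edgeR adjusted p = 0.334), and replicate 5 was under all untreated cultures. PARP14, a mono-ADP-ribosyltransferase that is known to modulate interferon signalling, rose, with 76.5, 62.4, 47.6 and 61.8 CPM untreated and 89.9, 201, 174 and 179 CPM with IL1β (log2 fold change 1.38 ± 0.26 SE, edgeR adjusted p = 0.0484). PARP9 and DTX3L form a complex that modifies histones and viral proteins and lie in the same stretch as PARP14 on chromosome 3 (chr3:122527924-122730840). PARP9 had 22.7, 29.1, 27.4 and 22.1 CPM untreated and 18.2, 80.7, 66.1 and 67.3 CPM with IL1β (log2 fold change 1.20 ± 0.38 SE, edgeR adjusted p = 0.256), and DTX3L had 69.4, 85.7, 66.2 and 69.1 CPM untreated and 67.8, 186, 166 and 161 CPM with IL1β (log2 fold change 1.0 ± 0.29 SE, edgeR adjusted p = 0.19). The 3 neighbours differed in replicate 5, which was under the untreated range in PARP9, inside it in DTX3L and above it in PARP14.

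SP110, a nuclear body protein, had 31.0, 23.6, 17.7 and 23.0 CPM untreated and 30.9, 59.5, 47.5 and 48.4 CPM with IL1β (log2 fold change 0.97 ± 0.24 SE, edgeR adjusted p = 0.125), with replicate 5 just under the highest untreated culture. IFI16, a nuclear DNA sensor, was abundant before treatment and had 157, 112, 127 and 91.7 CPM untreated and 110.1, 252, 218 and 220.4 CPM with IL1β (log2 fold change 0.72 ± 0.27 SE, edgeR adjusted p = 0.359), with replicate 5 within the untreated range. IFI35, a partner of NMI in interferon signalling, had 50.3, 24.0, 39.5 and 44.2 CPM untreated and 99.0, 88.9, 76.4 and 76.8 CPM with IL1β (log2 fold change 1.11 ± 0.23 SE, edgeR adjusted p = 0.0647). Its highest level was in replicate 5, which sets it apart from the other 6 genes of this group.

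RSAD2 (viperin) and CMPK2 work on nucleotides: viperin makes a chain-terminating nucleotide and CMPK2 phosphorylates nucleoside monophosphates. They are neighbours on chromosome 2 (chr2:6840570-6898239). CMPK2 rose, with 5.50, 4.88, 2.86 and 5.28 CPM in untreated replicates 1 to 4 and 6.83, 51.7, 41.1 and 38.4 CPM in IL1β replicates 5 to 8 (log2 fold change 2.90 ± 0.54 SE, edgeR adjusted p = 0.0411). Replicate 5 exceeded the highest untreated culture only slightly, while the other treated cultures were several times higher. RSAD2 had 3.23, 6.48, 3.40 and 1.69 CPM untreated and 1.40, 62.9, 63.9 and 41.2 CPM with IL1β (log2 fold change 3.52 ± 0.89 SE, edgeR adjusted p = 0.128), and replicate 5 was the lowest of all 8. ISG20, an exonuclease that degrades single-stranded RNA, had 13.2, 2.94, 3.61 and 4.53 CPM untreated and 47.1, 28.8, 21.8 and 19.8 CPM with IL1β (log2 fold change 2.27 ± 0.51 SE, edgeR adjusted p = 0.0811). Here replicate 5 was the highest treated culture and untreated replicate 1 the highest untreated one, and the gene rose when untreated replicate 1 was left out but not when replicate 5 was (log2 fold change 1.94, edgeR adjusted p = 0.117, with 0.00026 to 0.23 over all alternatives run).

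IFI6, IFI44, IFI44L and IFI27 are known for strong induction by interferon, and IFI44L and IFI44 are neighbours on chromosome 1 (chr1:78619902-78664078). None of the 4 passed over all 8 libraries with edgeR (3 at an unadjusted p under 0.05, 1 with DESeq2, 0 with limma-voom, against 6.23%, 2.82% and 1.21% of all genes). IFI6 had 6.60, 10.4, 16.2 and 19.1 CPM in untreated replicates 1 to 4 and 13.1, 79.4, 51.7 and 65.1 CPM in IL1β replicates 5 to 8 (log2 fold change 2.0 ± 0.52 SE, edgeR adjusted p = 0.139). IFI44 had 23.2, 55.9, 49.5 and 44.6 CPM untreated and 27.8, 123, 102 and 103 CPM with IL1β (log2 fold change 1.04 ± 0.43 SE, edgeR adjusted p = 0.417). IFI44L ranged widely, with 4.33, 41.7, 24.6 and 33.6 CPM untreated and 2.64, 154, 114 and 138 CPM with IL1β (log2 fold change 1.97 ± 0.96 SE, edgeR adjusted p = 0.511). Untreated replicate 1 and IL1β replicate 5 were both far under the other 6 libraries for IFI44L, and without the pair of them its log2 fold change was 2.05, close to that over all 8 libraries. IFI27 had 40.1, 13.7, 17.5 and 33.3 CPM untreated and 82.4, 51.0, 35.9 and 57.7 CPM with IL1β (log2 fold change 1.12 ± 0.37 SE, edgeR adjusted p = 0.286), with its highest level in replicate 5, and it passed under none of the alternatives.

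Of the other restriction and cell death factors, SAMD9L rose, with 36.9, 41.6, 23.3 and 34.3 CPM in untreated replicates 1 to 4 and 56.3, 212, 196 and 182 CPM in IL1β replicates 5 to 8 (log2 fold change 2.25 ± 0.39 SE, edgeR adjusted p = 0.0313). SAMD9L and SAMD9 are paralogs beside each other on chromosome 7 (chr7:93099513-93148385) that inhibit translation in infected cells. SAMD9 had 57.3, 63.8, 39.0 and 37.2 CPM untreated and 30.1, 234, 199 and 179.9 CPM with IL1β (log2 fold change 1.70 ± 0.51 SE, edgeR adjusted p = 0.219), so that replicate 5 lay above the untreated range for one paralog and below it for the other. PLSCR1, a scramblase that restricts virus entry, had 21.9, 50.5, 38.7 and 59.3 CPM untreated and 45.3, 167, 156 and 184 CPM with IL1β (log2 fold change 1.70 ± 0.44 SE, edgeR adjusted p = 0.141). XAF1, an antagonist of the apoptosis inhibitor XIAP, had 30.2, 33.6, 10.4 and 36.1 CPM untreated and 23.8, 120.1, 86.9 and 115 CPM with IL1β (log2 fold change 1.65 ± 0.51 SE, edgeR adjusted p = 0.237). For both, replicate 5 lay within the untreated range. EPSTI1 was low, at 1.06 to 4.98 CPM untreated, 1.84 CPM in replicate 5 and 12.6 to 20.3 CPM in replicates 6 to 8 (log2 fold change 2.47 ± 0.71 SE, edgeR adjusted p = 0.19).

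BST2 (tetherin), which holds budding virions at the cell surface, had 54.7, 55.8, 103 and 81.1 CPM untreated and 89.6, 96.9, 115 and 89.2 CPM with IL1β (log2 fold change 0.41 ± 0.23 SE, edgeR adjusted p = 0.601). The groups overlapped and the gene passed under none of the alternatives. TRIM22, an antiviral ligase, had 81.9, 37.1, 36.7 and 43.2 CPM untreated and 79.3, 89.9, 67.5 and 87.6 CPM with IL1β (log2 fold change 0.71 ± 0.27 SE, edgeR adjusted p = 0.372). Untreated replicate 1 was as high as the treated cultures, and TRIM22 rose once that library was left out.

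Per kilobase of annotated exon, BST2 was the most abundant of the 39 genes in untreated cells (67.0 CPM per kb, 49.7 to 93.9 over the 4 cultures). UBE2L6 (23.9), ISG15 (23.7), IFI16 (23.0), IFI44 (21.2) and IFI35 (20.2 CPM per kb) followed, with ranges that overlapped one another, and MX2 was the lowest (0.0343). With IL1β the order depended on the library. Over replicates 6 to 8 the mean levels per kb were highest for ISG15 (92.6), BST2 (91.2), IFIT3 (81.0) and IFI6 (69.9), with ranges that overlapped. In replicate 5 they were highest for BST2 (81.4), IFI35 (50.5) and ISG15 (44.9), and IFIT3 was at 6.52 CPM per kb. The length joins the exons of all annotated transcripts of a gene, from 867 bases in ISG15 to 18045 in OAS3. The order thus depends on the annotation as well as on CPM. MX1, at 384 to 486 CPM in replicates 6 to 8, has 17984 such bases and came to 23.6 CPM per kb. Which transcripts these cells use was not examined. Genes with an ISRE core in a window had a median log2 fold change of 1.70 (22 genes), those with a window and no core 1.04 (10 genes) and those without a window 2.47 (7 genes). The median ratios of the genes with a core to their untreated mean were 0.806, 4.54, 3.69 and 3.56 in replicates 5 to 8, and those of the genes without one 1.40, 2.49, 2.08 and 2.10. Both groups are described without a test, and their ranges of fold changes (0.41 to 3.52 and 0.72 to 2.90 on the log2 scale) overlapped.

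Genes upstream of this program were counted from lists written with earlier results in view. None of the 21 interferon genes in the table passed the filter on low counts. IFNB1 had 0, 6, 1 and 0 counts in untreated replicates 1 to 4 and 0, 9, 8 and 12 counts in IL1β replicates 5 to 8. IFNL1 (interferon lambda 1), picked out after its values were seen, had 0, 0, 3 and 0 counts untreated and 2, 44, 11 and 17 counts in IL1β replicates 5 to 8. IFNE (interferon epsilon), also named after its values were seen, did not share this layout, with 16, 10, 5 and 3 counts untreated and 2, 13, 6 and 5 counts with IL1β. The other 18 interferon genes had at most 3 counts in any library. Counts of IFNB1 and IFNL1 were thus highest in replicates 6 to 8, at low depth and without a test. Scaled for depth, IFNB1 was at 0.333 CPM in untreated replicate 2 and at 0.386, 0.386 and 0.807 CPM in IL1β replicates 6 to 8. Replicates 6 and 7 thus exceeded that untreated culture only slightly for IFNB1.

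Of 14 receptor and signalling genes tested, 3 rose and 0 fell (edgeR, median log2 fold change 0.57), 7 being higher at an unadjusted p under 0.05. Among all genes tested, 0.929% rose and 6.23% were higher at that unadjusted p. IFNAR2, a chain of the interferon alpha and beta receptor, rose, with 19.7, 36.8, 20.3 and 42.6 CPM in untreated replicates 1 to 4 and 95.4, 73.9, 75.6 and 78.8 CPM in IL1β replicates 5 to 8 (log2 fold change 1.44 ± 0.27 SE, edgeR adjusted p = 0.0469). Its replicate 5 was the highest of the 8 libraries, and 14.7% of its exonic length is shared with a readthrough gene on the same strand. IFNGR1, a chain of the interferon gamma receptor, rose (log2 fold change 1.53 ± 0.19 SE, edgeR adjusted p = 0.00828), as did SOCS3, a feedback inhibitor of cytokine receptors (log2 fold change 1.44 ± 0.28 SE, edgeR adjusted p = 0.0473). IFNAR1 had 89.8, 116, 83.3 and 93.4 CPM untreated and 122, 146, 149.8 and 159 CPM with IL1β (log2 fold change 0.59 ± 0.17 SE, edgeR adjusted p = 0.183), JAK1 had 317, 347, 261 and 354 CPM untreated and 235, 411, 406 and 544 CPM with IL1β (log2 fold change 0.32 ± 0.24 SE, edgeR adjusted p = 0.719) and TYK2 had 38.4, 47.3, 72.8 and 72.4 CPM untreated and 64.9, 77.4, 84.5 and 70.6 CPM with IL1β (log2 fold change 0.37 ± 0.23 SE, edgeR adjusted p = 0.651). IRF9, the DNA-binding partner of STAT2, was hardly counted, at 0.168 to 1.22 CPM untreated and 0.220 to 0.558 CPM with IL1β. In GENCODE 44, 1544 exonic bases of IRF9 (23.9%) are shared with another protein-coding gene on the same strand, and the part of this overlap in its low counts was not tested.

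Among the interferon regulatory factors, IRF1, which NF-kB is known to induce, rose, with 56.0, 45.1, 44.9 and 97.9 CPM in untreated replicates 1 to 4 and 287, 219.8, 218 and 283 CPM in IL1β replicates 5 to 8 (log2 fold change 2.05 ± 0.28 SE, edgeR adjusted p = 0.0115). IRF7, which drives interferon genes and is itself interferon-inducible, rose too, with 10.9, 6.65, 12.4 and 14.8 CPM untreated and 29.8, 48.0, 34.5 and 40.8 CPM with IL1β (log2 fold change 1.77 ± 0.27 SE, edgeR adjusted p = 0.0189). In IRF1 replicate 5 was the highest culture and in IRF7 the lowest treated one, and in both the groups did not overlap. Of 5 such factors tested, these 2 rose, against 0.929% of all genes. Of 13 genes tested that sense nucleic acid and lead to interferon, 2 rose, against the same 0.929% of all genes. They were IRF7 and TICAM1, the adaptor of TLR3 (log2 fold change 1.41 ± 0.18 SE, edgeR adjusted p = 0.00828).

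Of 39 other interferon-stimulated genes tested, 9 rose and 0 fell (edgeR, median log2 fold change 0.70, 24 higher at an unadjusted p under 0.05). Among all genes tested, 0.929% rose and 6.23% were higher at that unadjusted p. The 9 were IRF7, TRIM21, PML, ZNFX1, HELZ2, TDRD7, TNFSF10, PSMB9 and TAP1. PML, the core of nuclear bodies, had 76.6, 98.5, 112 and 147 CPM in untreated replicates 1 to 4 and 349, 401, 410.4 and 346 CPM in IL1β replicates 5 to 8 (log2 fold change 1.80 ± 0.21 SE, edgeR adjusted p = 0.00657). HELZ2, a helicase, had 36.4, 34.4, 38.0 and 53.1 CPM untreated and 98.0, 330.5, 272 and 235 CPM with IL1β (log2 fold change 2.53 ± 0.35 SE, edgeR adjusted p = 0.0124), and the death ligand TNFSF10 (TRAIL) had 10.1, 12.7, 9.12 and 13.2 CPM untreated and 26.8, 85.5, 95.7 and 62.4 CPM with IL1β (log2 fold change 2.58 ± 0.37 SE, edgeR adjusted p = 0.0145). In PML replicate 5 was level with the other treated cultures, while in HELZ2 and TNFSF10 it lay between them and the untreated ones. TRIM21, ZNFX1, TDRD7, PSMB9 and TAP1 rose by log2 fold changes of 1.43, 1.65, 1.27, 0.86 and 1.11. The median ratios of these 39 genes to their untreated mean were 1.39, 1.85, 1.72 and 1.57 in replicates 5 to 8. Of 7 interferon-induced chemokines and guanylate-binding proteins tested, GBP4 rose (log2 fold change 2.99 ± 0.50 SE, edgeR adjusted p = 0.0278) and all 7 were higher at an unadjusted p under 0.05, against the shares of all genes given above.

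Some of the 39 genes share exon sequence with another annotated gene (14 in GENCODE 44). The largest shares were 38.3% of the exonic length of XAF1 with PRAL on the opposite strand, 23.1% of IFI6 with LINC02574 on the same strand and 17.8% of SP110 with an antisense transcript. RSAD2 and CMPK2 share 351 bases on opposite strands, and PARP9 and DTX3L 139 bases. The libraries were stranded and the strand setting of the counting is not given in the sources used here, so that reads in these stretches may have been assigned to either gene or to none.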

How the data were processed

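Per the labels and the study's methods, the libraries were stranded, and the raw counts deposited by the authors came from featureCounts after alignment of trimmed reads with STAR 2.5.3a (hg38). For the counting, annotation and strand setting were not given in the sources used here. Of 59050 rows, 27 carried dates in place of symbols (at most 0.236% of a library's counts) and were left out. In R 4.3.3, edgeR 4.0.16 was used with filterByExpr, TMM factors and the quasi-likelihood F test on condition alone. P-values were adjusted by Benjamini-Hochberg over all genes tested at a threshold of 0.05, and the SE is the fold change divided by the square root of F. Log2 CPM had a prior count of 2. Alternatives were RLE, upper-quartile or no factors, DESeq2 1.42.0, limma-voom (limma 3.58.1), other filters, left-out libraries and nominal thresholds. The fit was tested on simulated data. No library was a copy of another.

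The members and gene lists were chosen with earlier results of these data known. Every library's value was to be given for members that passed, did not overlap or averaged at least 10 CPM, and every listed pathway gene that passed could be named, with the interferon, receptor, STAT and IRF genes given above, apart from 1 listed gene that is not reported here. Exonic lengths, overlaps and gene positions came from GENCODE 44, and promoters from RefSeq (GRCh38.p14).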

Additional observations from a re-analysis of the deposited data

Results flagged for a closer look

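Within groups of 4 libraries, a library was picked out when its gap to the nearest of the others took up more of the group's range than Dixon's 95% critical value allows. Chance does this in about 1 in 20 groups, and 4 of the 78 gene groups examined were picked out. OAS3 was lowest in untreated replicate 1, at 39.4 CPM. DTX3L was highest in untreated replicate 2, at 85.7 CPM. ISG20 was highest in untreated replicate 1, at 13.2 CPM, and so was TRIM22, at 81.9 CPM. For the median over the 39 genes of log2 CPM less each gene's mean over the 8 libraries, IL1β replicate 5 was picked out as the lowest of its group, at -0.684 against 1.02 to 1.28 in replicates 6 to 8. The untreated cultures were at -0.67 to -0.59.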

How the results depend on the processing

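No fold change of the 39 genes changed its direction in the 623 values recomputed under 16 alternatives. Of the counts and medians reported, the following moved. The count of the 39 genes that rose, 6 over all 8 libraries, was 0 with library size only (edgeR, 31 at an unadjusted p under 0.05, against 4.02% of all genes), 26 with DESeq2, 18 without a filter on low counts, 24 at the nominal thresholds and 37 without untreated replicate 1 and IL1β replicate 5. It was 0 to 28 when a single library was left out, 28 belonging to IL1β replicate 5. All genes that rose, 140, became 423 with DESeq2, 230 without a filter, 320 at the nominal thresholds, 378 without the pair of libraries and 38 to 218 with a single library left out. All genes that fell, 9, became 15 with upper-quartile factors, 109 with DESeq2, 71 at the nominal thresholds, 54 without the pair and 0 to 12 with a single library left out. Genes of the pathway lists that rose, 24, became 45 with DESeq2, 40 at the nominal thresholds, 40 without the pair and 6 to 31 with a single library left out. The median log2 fold change of the 39 genes stayed between 1.46 and 1.94. Library size only moved the median of all genes from -0.02 to -0.18, with the 39 genes at 1.53. Without a filter 31930 genes were tested, and at 1 CPM in 4 libraries 13474, MX2 not among them. The cause of these moves was not tested. No paired analysis was possible because, although the methods speak of pairs, the labels do not say which untreated and treated cultures form a pair and the groups share no replicate number. In genes at few counts, such as MX2 and IFNB1, depth limits the values.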
